A study of Drosophila melanogaster with 2 samples.

Results

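Of the 2854 peaks of CG4730-eGFP on the autosomal arms, 319 (11.2%, 95% Wilson interval 10.1 to 12.4) lay deep inside genes. Their summit was inside an annotated gene, in no exon of any gene, and more than 5000 bp from the nearest annotated transcript start. They are called far-intronic peaks here. The set from which they were taken was the authors' pooled thresholded set, which held 3571 peaks over all chromosomes. Among thresholded peaks, position alone chose them. The threshold itself rests on the peaks' ranks in the replicates, so weak peaks had less chance to enter the set, and their signals are given as a description. Intervals cover counting error only, and no source used here gives the read depth behind the peaks.

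Chromatin immunoprecipitation with sequencing recovers DNA that was bound to a chosen protein, and places where recovered fragments pile up are called peaks. The embryos were whole Drosophila melanogaster of 0 to 24 hours, a mixture of stages and cell types, from a transgenic strain labelled CG4730-GFP that expresses CG4730 fused to eGFP. The pull-down used an antibody to GFP after sonication to 200 to 800 bp. There was 1 group with 2 biological replicates, both from the same labelled donor strain, and no group to compare it with, so nothing here was tested.

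An intron is transcribed with its gene and then spliced out. In Drosophila the long introns, often the first of a gene, are known to hold enhancers, insulators and starts of shorter transcripts, and genes of development and of the nervous system are known for the longest ones. A protein found deep in an intron may lie at a sequence that acts on the host gene, on a neighbour or on neither, and a peak list does not show which.

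The sequences around the summit are shown for 8 far-intronic peaks, because base composition at the summit varied with signal. The first 6 are from the strongest peaks by pooled signal, and the last 2 hold a motif described later. Each is 101 bases of NCBI's RefSeq Release 6 genome (dm6 coordinates, plus strand), centred on the summit and named by its host gene. Capitals mark a match to TATAAA, TATATTAA, TATTTATA or AGATGGCG on either strand.
CG32486, chr3L:3060735-3060835: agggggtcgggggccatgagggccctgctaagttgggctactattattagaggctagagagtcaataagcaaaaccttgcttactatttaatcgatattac
Gug, chr3L:8458295-8458395: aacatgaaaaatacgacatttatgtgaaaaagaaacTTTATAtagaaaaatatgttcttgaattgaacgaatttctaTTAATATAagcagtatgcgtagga
JIL-1, chr3L:11084740-11084840: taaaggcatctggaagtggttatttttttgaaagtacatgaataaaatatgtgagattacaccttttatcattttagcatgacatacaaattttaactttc
rdx, chr3R:14012688-14012788: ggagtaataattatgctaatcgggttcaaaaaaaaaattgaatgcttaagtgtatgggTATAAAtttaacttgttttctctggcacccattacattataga
Lrch, chr2L:17379036-17379136: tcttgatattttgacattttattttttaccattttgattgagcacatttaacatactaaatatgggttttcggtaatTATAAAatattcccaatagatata
fz, chr3L:14304004-14304104: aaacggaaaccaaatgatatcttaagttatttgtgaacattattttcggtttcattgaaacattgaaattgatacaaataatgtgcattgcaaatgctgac
CG32982, chr2L:9133379-9133479: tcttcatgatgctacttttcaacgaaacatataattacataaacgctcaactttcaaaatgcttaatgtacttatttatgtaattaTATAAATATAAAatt
Eip75B, chr3L:18019801-18019901: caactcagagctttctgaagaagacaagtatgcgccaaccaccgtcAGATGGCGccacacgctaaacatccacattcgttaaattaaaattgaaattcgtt

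These windows ranged from long runs of A and T to a mixed composition. The window at Gug was 75.2% A and T, against 54.0% in its flanks, 2 windows as wide, 500 bp to the left and to the right. The window at Lrch was 77.2% A and T against 64.9% in its flanks, and that at rdx 70.3% against 54.5%. The window at CG32486, the strongest far-intronic peak, was closer to its surroundings, at 54.5% against 51.0%. At fz the order was the other way, with 71.3% A and T at the summit and 78.7% in the flanks.

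The strongest far-intronic peaks lay in genes with a range of roles. Signals are the authors' own value for each peak, in a unit that is not stated. The value of a replicate is that of its strongest overlapping peak in its own ranked list, the long list from which the authors' thresholded set was taken. The peak in CG32486 (FBgn0266918; 3L, 3060672 to 3060927) had a pooled signal of 826, and it read 449 in replicate 1 and 376 in replicate 2. It lay in a first intron of 12037 bp, 5706 bp from the nearest start, which belonged to the neighbouring gene CG16753. The peak on 2R from 10219948 to 10220223 had a pooled signal of 753 and read 346 and 396 in the replicates. Its summit was inside 3 genes at once, CG12912, CG46321 and Hr3, the last of which encodes a nuclear receptor of the response to the moulting hormone ecdysone. These peaks stood apart from the rest in both replicates.

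The next peaks were at 461 and below. Gug (FBgn0010825; 3L, 8458229 to 8458435), which encodes the corepressor Atrophin, had a pooled signal of 461 and read 178 in replicate 1 and 283 in replicate 2. JIL-1 (FBgn0020412; 3L, 11084702 to 11084887), a histone H3 kinase, had 402 and read 198 and 204. The gene simj (FBgn0010762), for a subunit of the nucleosome remodelling complex NuRD, held a peak of 378 (189 in replicate 1 and 188 in replicate 2) and another of 303 (161 and 149). Psc (FBgn0005624; 2R, 12975495 to 12975670), a Polycomb group gene, had 345 and read 173 and 172. The replicates lay close together at JIL-1, simj and Psc and apart at Gug.

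Mi-2, which encodes the ATPase of NuRD, shared a far-intronic peak of 324 (147 and 179) with Su(Tpl), the gene of an elongation factor for RNA polymerase II. The peak in Lrch, a gene of the cytoskeleton, had 335 (172 and 140). At fz, a receptor for Wnt signals and for planar cell polarity, the strongest peak had 329 (129 and 195). Others among the 20 strongest lay in sick at 302, CG6959 at 278, CG10283 at 256, wdb, a regulatory subunit of protein phosphatase 2A, at 253, babos at 248, CG6966 at 241 and Tet, of the TET dioxygenase family, at 236. Each of these 20 peaks overlapped a peak in the own thresholded sets of both replicates, as the choice of the 20 required.

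The typical far-intronic peak was much weaker. Pooled signals ran from 3.58 to 826 with a median of 93.5 and quartiles of 72.4 and 135. The values in the replicates' ranked lists ran from 14.7 to 449 in replicate 1 and from 17.0 to 396 in replicate 2, with medians of 47.2 in both (n = 315 in each). Of the 311 peaks found in both lists, 293 (94.2%) had values within 2-fold of each other, against 93.7% of all autosomal peaks. Across peaks, which are not replicates, Spearman's rho between the lists was 0.61 for the 311 and 0.76 for the 2769 autosomal peaks in both lists.

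Found again in each replicate's own thresholded set were 109 of the 319 (34.2%, 29.2 to 39.5), where 48.2% of all autosomal peaks were. Another 95 overlapped a peak of 1 replicate's own set, and 115 overlapped a peak of neither. The median pooled signal was 163 for the first of these, 94.2 for the second and 71.5 for the third. Counted afresh in the replicates' own sets, the same positions held 159 of 1811 autosomal peaks in replicate 1 (8.78%) and 173 of 1957 in replicate 2 (8.84%).

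**Figure D1:**
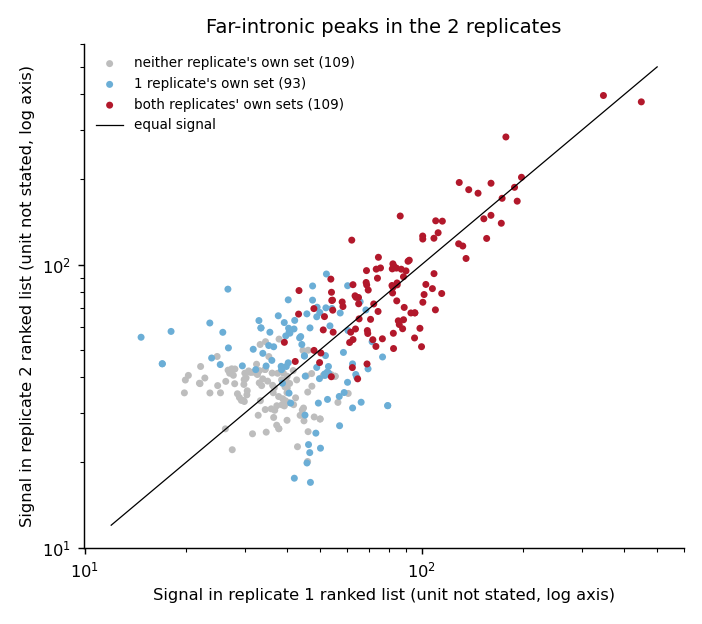
Signal of far-intronic peaks in the ranked list of replicate 1 (horizontal, log axis, unit not stated) and of replicate 2 (vertical, log axis), 1 point per peak for the 311 found in both, coloured by how many replicates' own thresholded sets the peak overlapped. The line marks equal signal, the peaks in both own sets lie toward the upper right, and the 2 points above 300 in both lists are those in CG32486 and in CG12912, CG46321 and Hr3.

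The lowest pooled values belonged to peaks that overlapped a stronger one. All 11 far-intronic peaks with a pooled signal under 50 (3.58 to 32.9) were the weaker of a pair of overlapping thresholded peaks, whose stronger partner was between 60.0 and 154. They lay in mam, rdx, PRAS40, Pka-C3, hbs, babos, Octbeta1R, plh, pum, CG45088 and eIF5B. Their replicate values can be those of the partner, because the same replicate peak can overlap both. Without them 308 peaks were left, of which the weakest had a signal of 54.7.

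The limit of 5000 bp had both stronger and weaker peaks on either side. Just inside it were a peak 5001 bp from a start in rols, with a pooled signal of 63.9, and a peak at 5002 bp in ed, with 177. Just outside were a peak 4991 bp from a start in tara, with 136, and a peak at 4986 bp in Eip63E, with 2.82.

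Far-intronic sequence made up 22.9 Mb, or 20.8% of the autosomal sequence, and held 13.9 pooled peaks per Mb. Intronic sequence from 501 to 5000 bp of a start held 34.5 per Mb, sequence within 500 bp of a start 84.7, intergenic sequence 14.9 and exonic sequence 4.96. The order of the 5 locations was the same in the own set of each replicate. The pooled ranked list held 21357 peaks at far-intronic positions, of which 1.49% were in the thresholded set, against 2.49% of the ranked autosomal peaks as a whole. Far-intronic peaks had a median pooled signal 0.85 times that of the other autosomal peaks. Among the 300 strongest pooled peaks over all chromosomes, X included, 12 were far-intronic.

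The medians by location ran from 125 within 500 bp of a start and 105 at intronic positions nearer to a start, through 98.4 for intergenic and 93.5 for far-intronic peaks, to 73.3 for exonic ones. The share found in both own sets was 55.5%, 47.7%, 43.75%, 34.2% and 24.5% in the same order. Per arm there were 64 far-intronic peaks on 2L, 63 on 2R, 85 on 3L, 107 on 3R and 0 on 4, between 12.9 and 15.8 per Mb of far-intronic sequence on the 4 large arms. The arm 4 held only 2 thresholded peaks of any kind. Under the same rule the X chromosome held 124 peaks, or 23.1 per Mb of its far-intronic sequence.

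**Figure D2:**
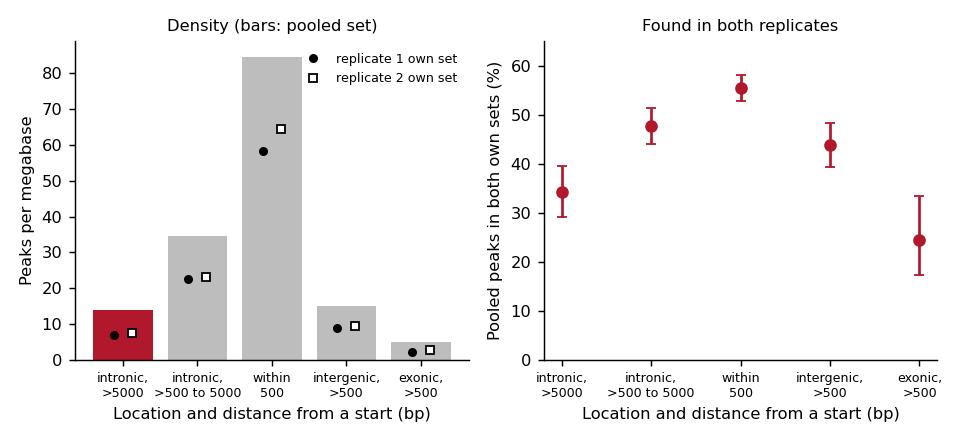
Left, thresholded peaks per megabase of autosomal sequence (vertical) by location of the summit (horizontal, with its distance from a start in bp), as bars for the pooled set and points for each replicate's own set. Right, percent of pooled peaks that overlapped a peak of both own sets, with 95% Wilson intervals: far-intronic peaks stood at 34.2% and peaks within 500 bp of a start at 55.5%.

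Far-intronic peaks lay in first introns more often than the far-intronic sequence did. Of the 319, 163 (51.1%, 45.6 to 56.5) were in the first intron of at least 1 transcript, where 29.8% of far-intronic bases were. Of the 21038 far-intronic peaks that the pooled list ranked below the threshold, 34.1% were. The share was 50.3% in the own set of replicate 1 and 55.5% in that of replicate 2. The first-intron peaks included those of CG32486, Gug, simj, Lrch and fz, while the strongest peaks in JIL-1, Psc and rdx were in later introns.

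The peaks also lay nearer to starts than the sequence available, and fewer of them were in the longest introns. Their median distance from a start was 9040 bp, against 12568 bp for far-intronic bases and 11180 bp for ranked peaks below the threshold. Only 10.7% of peaks were over 20000 bp from a start, where 31.8% of the bases and 22.7% of the ranked peaks below the threshold were. The median host intron was 19041 bp long, and 10.7% of peaks were in introns over 50000 bp, which held 24.1% of the bases and 16.4% of the ranked peaks below the threshold. At lower limits the gap narrowed and then turned. Introns over 20000 bp held 46.7% of peaks, 53.0% of bases and 47.2% of the ranked peaks below the threshold. Introns over 10000 bp held 79.3% of peaks and 74.9% of bases, the other way round. Where introns of several transcripts overlapped, the shortest was taken for a peak, but only introns over 5000 bp were considered for bases. The shares of bases can be higher for that reason. The shortest host intron, of 349 bp, was in retn, and the longest, of 189627 bp, in lovit. The peak farthest from a start lay 226837 bp away in Myo81F, with a pooled signal of 63.8, in the own set of replicate 1 alone.

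The nearest start was one of the host gene for 173 peaks and of another gene for 146. Splice sites were mostly far off, at a median of 4473 bp, with 3 peaks within 100 bp of one. An annotated transposable element held 1 summit, in kibra. A protein-coding gene was the host of 316 peaks, and the other 3 lay in the long noncoding gene lncRNA:CR46006. Of the 319, 19 lay inside 2 or more genes at once, where the host cannot be told.

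The 316 peaks in protein-coding hosts fell in 216 genes, of which 72 held 2 or more and 13 held 4 or more. Counting each overlapping pair once, 65 genes held 2 or more. The gene with the most was sbb (FBgn0285917; 2R, 18278198 to 18357296), which encodes the corepressor Scribbler, also called Brakeless. Its 7 peaks stretched over 17.8 kb, and 6 of them were found in both replicates' own sets. The strongest had a pooled signal of 358 (161 in replicate 1 and 194 in replicate 2), the second 331 (138 and 184), and the weakest 121 (48.9 and 65.4). The 6 lay between 12.8 and 23.9 kb along the gene and the weakest at 30.6 kb.

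The gene rdx (FBgn0264493; 3R, 13967061 to 14032057), whose BTB protein hands the Hedgehog effector Ci to a ubiquitin ligase, held 5 peaks, 1 of them the weaker of an overlapping pair. Its strongest had a pooled signal of 342 (192 and 168), and the next 177 (84.2 and 97.2). The other peaks of rdx were in neither own set. The gene ftz-f1 (FBgn0001078; 3L, 18750607 to 18801309), for an orphan nuclear receptor, also held 5, within 9.35 kb and inside lncRNA:CR45939 as well. They ran from 69.6 to 148 in pooled signal, and only the strongest (95.3 and 55.1) was in both own sets. The peaks of both genes thus differed widely in signal and in how often the replicates called them.

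The others with 4 were fz, Snoo, gpp, ed, eIF5B, hth, luna, pum and Antp. Snoo, whose protein binds Smad factors, had 4 peaks from 148 to 235, of which 3 were in both own sets. The gene gpp, for the histone H3 methyltransferase Dot1, had 4 from 76.5 to 232, of which 2 were. The adhesion gene ed had 4 from 87.2 to 177, the Hox cofactor gene hth 4 from 75.5 to 171 and the zinc finger gene luna 4 from 68.3 to 143, with 2 each in both own sets. The Hox gene Antp had 4 from 74.0 to 136, which also lay inside CG46458, and 1 of them was in both. The 4 peaks of pum, for a translational repressor that binds RNA, were at 92.2 and below, included the weaker of a pair, and none was in both own sets. The 4 of eIF5B, for a translation initiation factor, likewise included the weaker of a pair, and the strongest had 176 (110 and 69.2).

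**Figure D3:**
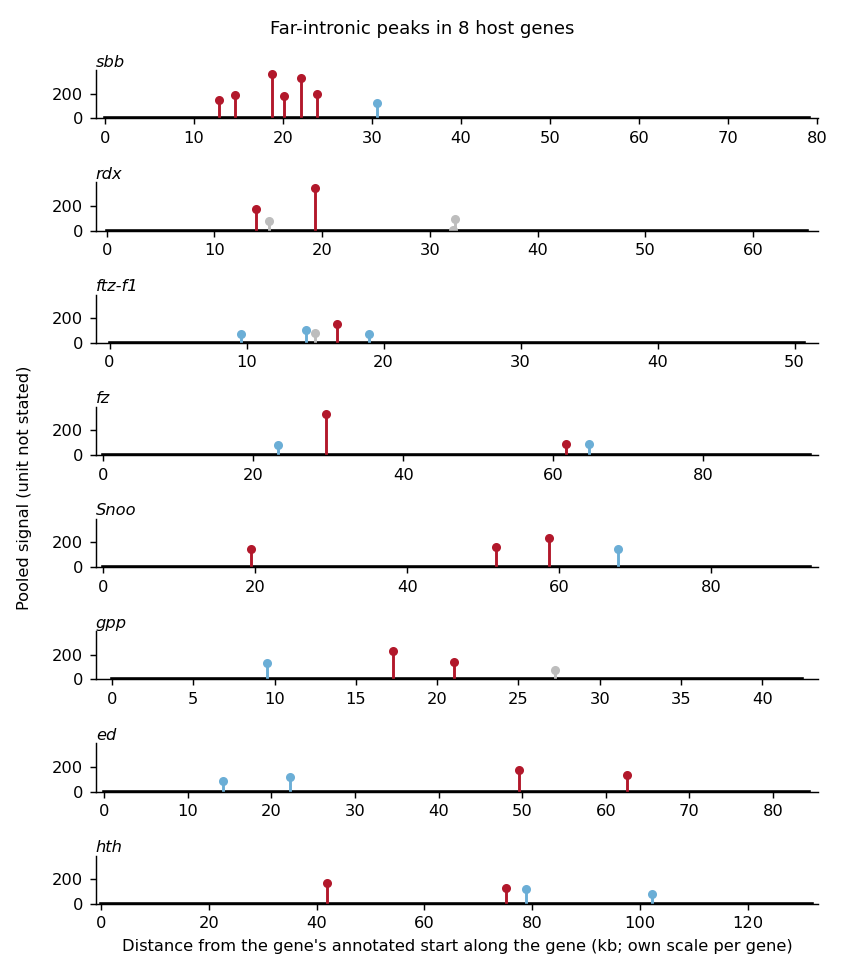
Far-intronic peaks in 8 of the host genes with 4 or more, drawn along each gene from its annotated start (horizontal, kb, with its own scale) and with pooled signal as the height (vertical, unit not stated). Red marks peaks in both replicates' own sets, blue those in 1 and grey those in neither: 6 of the 7 peaks of sbb are red and lie between 12.8 and 23.9 kb.

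Some far-intronic peaks lay near one another. Another far-intronic peak lay within 1000 bp of 41 of the 319 and within 5000 bp of 86, and the smallest gap between summits was 199 bp. The median gap was 28433 bp. Overlap with another thresholded peak was found for 24 of the 319, and such pairs can be part of these counts. The same counts were not made for other peaks.

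A gene with more far-intronic sequence was more often a host, but held fewer peaks for its length. Of 1117 autosomal protein-coding genes with at least 1 kb of such sequence, 214 (19.2%) held a far-intronic peak. The share was 5.71% of the 350 genes with 1 to 5 kb, 18.6% of the 451 with 5 to 20 kb, 30.7% of the 228 with 20 to 50 kb and 45.5% of the 88 with more. The peaks per 100 kb went the other way, at 2.66, 2.20, 1.69 and 0.738. The 50 genes with the most far-intronic sequence held 36.4% of it and 12.2% of the peaks, and 32 of them had none. In those 50 the ranked list was also thinner, with 68.5 peaks per 100 kb against 108 in the other genes, and Myo81F had 38.1. The part of that thinner list in the result was not tested.

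A peak within 500 bp of a start of the gene itself was found at 47 of the 214 hosts (22.0%, 16.9 to 28.0), where 15% of the 1117 genes had one. Of the 903 genes with no far-intronic peak, 121 (13.4%, 11.3 to 15.8) did. In the replicates' own sets the shares were 13.9% of hosts against 10.1% of other genes in replicate 1, and 16.7% against 11.5% in replicate 2. The order held in each of the 4 classes of length. Among the genes with 4 or more peaks, sbb, rdx and eIF5B had a promoter peak and the others did not.

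Host genes were then read by role, over 8 lists of genes. Genes of cell signalling pathways were the list with the largest share of hosts: 19 of the 42 with far-intronic sequence (45.2%, 31.2 to 60.1), with 32 peaks, where 19.2% of all such genes were hosts. These 32 were 4.19% of the ranked far-intronic peaks in those genes, against 1.49% of all. In the own sets, which held fewer peaks, 8 of these 42 genes were hosts in replicate 1 and 12 in replicate 2. Of all 1117 genes with at least 1 kb of far-intronic sequence, 122 and 132 were. The receptor gene fz led with the peak of 329, followed by Dad, an inhibitory Smad of BMP signalling, with 186 (82.8 and 98.6) and nkd, an antagonist of Wnt signalling, with 142. Further hosts, named here after their values were seen, were the kinase gene wts with 2 peaks, of 137 and 114, and kibra with 3, of 118 and below, both of the Hippo pathway, of which ds and ft held none. Chosen in the same way were the BMP ligand gene dpp at 133 and its receptor tkv at 90.5, the EGF receptor ligand vn with 3 peaks up to 76.4, and the Hedgehog receptor ptc at 66.9. Most of these peaks were weak, and 8 of the 32 were in both own sets.

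Transcription factors of patterning and cell fate held 34 peaks in 16 of 58 genes (27.6%, 17.8 to 40.2), or 2.70% of their ranked peaks. The strongest were the peak shared by Hr3, that of ush, a zinc finger cofactor of GATA factors, at 186 (88.4 and 90.6), and that of hth at 171 (84.7 and 84.8). In the own sets 12 of these 58 genes were hosts in replicate 1 and 9 in replicate 2, against 122 and 132 of all 1117 genes. Related genes differed. Among nuclear receptor genes of the list, ftz-f1 held 5 peaks, Eip75B 3, and Hr3 and Hr38 1 each, while EcR with 31.6 kb of far-intronic sequence, Hr39 with 10.5 kb and svp with 12.3 kb held none. Among Hox genes Antp held 4 and Ubx and abd-A 1 each, while pb with 26.6 kb, lab, Dfd and Scr held none. These genes were picked out after their values were seen.

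Chromatin regulators had the least far-intronic sequence of the lists, 67.0 kb in 12 genes, and 3 of these genes held 1 peak each. These were Psc, Mi-2 and trx, a histone H3 methyltransferase of the Trithorax group, whose peak had 148 (68.7 and 84.8). All 3 were in both own sets, and they were 6.67% (2.29 to 17.9) of the 45 ranked peaks there, against 1.49% of all. As genes, 3 of 12 were hosts (25%, 8.89 to 53.2), an interval that includes the 19.2% of all such genes.

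Axon guidance and cell surface adhesion genes had 11 peaks in 10 of 56 genes (17.9%), a share near the 19.2% of all such genes in the pooled set. Over their 1637 kb this was 0.551% of their ranked peaks, against 1.49% of all. In the own sets 3 of these 56 genes were hosts in replicate 1 and 4 in replicate 2. These were smaller shares than the 122 and 132 of all 1117 genes. The strongest were in the adhesion gene Fas3 at 164 (81.7 and 84.4), haf at 142 and the receptor gene drl at 98.7. Ion channel and neurotransmitter receptor genes had 3 peaks (0.487% of their ranked peaks) in 2 of 34 genes, the octopamine receptor Octbeta1R and the calcium channel subunit Ca-beta, all at 74.2 and below and 1 of them the weaker of a pair. Synaptic vesicle and secretion genes had 0 peaks among 203 ranked ones in 17 genes. The Wilson interval for the ranked peaks was 0 to 1.86%, which includes the 1.49% of all. For the genes it was 0 to 18.4%, where 19.2% of all such genes were hosts. Of the 203 ranked peaks, 107 were in Snap25 alone.

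Muscle and cytoskeleton genes held 7 peaks in 5 of 30 genes, or 1.86% of their ranked peaks, near the 1.49% of all. They included how, an RNA-binding STAR protein, at 178 (75.5 and 97.4), the Z-disc gene Zasp52 at 120 and the formin gene Fhos at 104. RNA-binding genes held 9 in 6 of 17 genes (35.3%, 17.3 to 58.7), where 19.2% of all such genes were hosts. These 9 were 0.697% of their ranked peaks, against 1.49% of all, so the 2 measures went opposite ways. They included how again, cpo at 123 and shep at 105. The genes how and fz2 each stood on 2 lists. None of these differences between lists was tested, and lists differed in the amount of far-intronic sequence, from 67.0 to 1637 kb. The thresholded share of ranked peaks fell with a gene's far-intronic sequence, from 3.01% at 1 to 5 kb to 0.954% at over 50 kb. The lists were not matched for this, and its part in the differences was not tested.

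**Figure D4:**
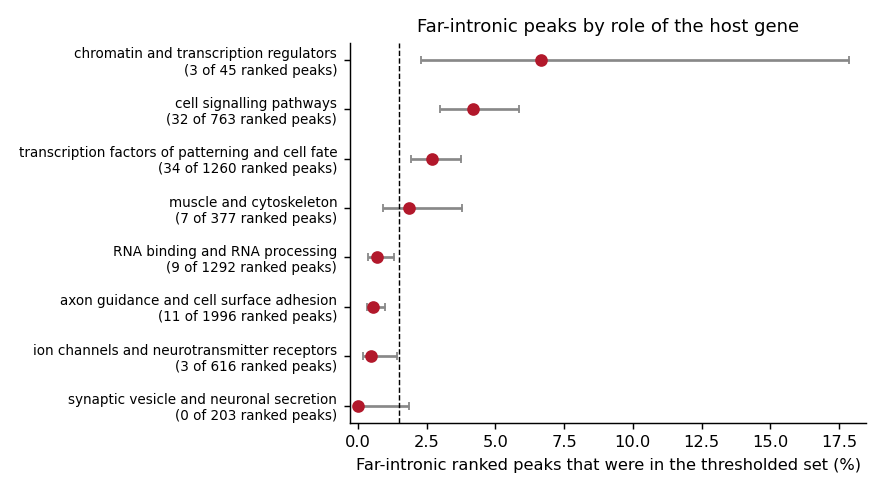
Percent of the far-intronic peaks in the pooled ranked list that were in the thresholded set (horizontal), for host genes of 8 lists (vertical), with 95% Wilson intervals over peaks. The dashed line is the 1.49% of all far-intronic ranked peaks: signalling genes stood at 4.19% and axon guidance genes at 0.551%. Lists were not matched for far-intronic sequence per gene.

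The sequence under the summits was rich in A and T, and more so under stronger peaks. Over the 319 the window of 101 bp at the summit was 65.9 ± 9.49% A and T (mean ± SD over peaks), and the flanks were 58.6%. The summit was richer in 239 of the 319, by 7.31 ± 11.7 percentage points on average. The same difference was 8.53 points in the far-intronic peaks of the own set of replicate 1 and 8.45 in those of replicate 2. Ranked far-intronic peaks below the threshold had the opposite order, with 55.4% at the summit and 58.5% in the flanks.

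By quartile of pooled signal, the summit was 59.4% A and T in the weakest 80 peaks, then 66.3%, 67.8% and 70.2%. The flanks stayed between 57.9% and 59.3%. The mean difference was 0.427, 8.33, 9.58 and 10.9 points, and the summit was the richer in 42 of 80, 57 of 80, 66 of 79 and 74 of 80. Leaving out the weaker of each overlapping pair, the weakest quartile still stood at 1.02 points (n = 69). Few peaks of the 2 weaker quartiles were found in both own sets: 1 of 80 and 3 of 80, against 29 of 79 and 76 of 80 in the 2 stronger quartiles. Other autosomal peaks in the same ranges of signal had differences of 0.0439, 7.63, 10.6 and 13.9 points, so the rise with signal was not confined to far-intronic peaks. Those other peaks included intronic ones nearer to a start and were not split by location.

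In bins of 20 bp the strongest quartile reached 72.5 ± 1.15% A and T (mean ± SEM over 80 peaks) in the bin just past the summit and fell to 52.3 ± 1.74% at 210 bp, below the level farther out. The weakest quartile stood at 57.9 ± 1.70% and 58.3 ± 1.66% in the same bins. The rise was thus narrow, about the width of the window, and it had a trough on each side.

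**Figure D5:**
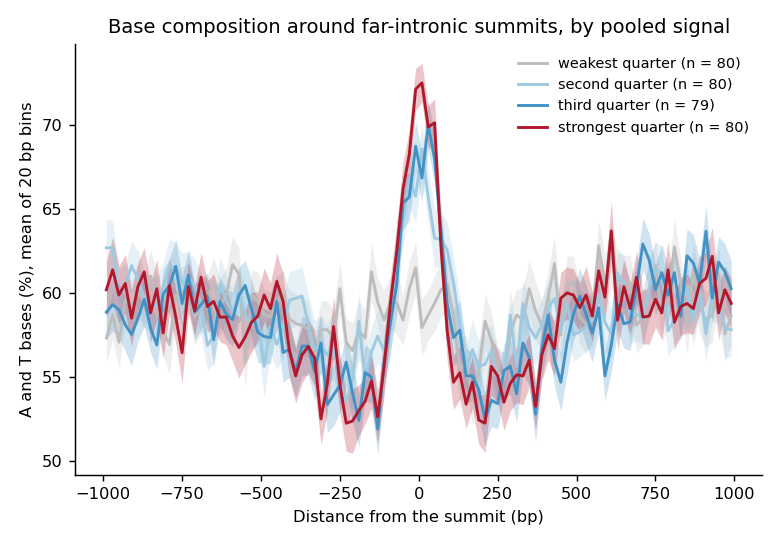
Percent of A and T bases in bins of 20 bp (vertical) by distance from the summit in bp (horizontal), as the mean over far-intronic peaks in each quartile of pooled signal, with bands of 1 SEM over peaks. The strongest quartile peaks at 72.5% by the summit with troughs to both sides, and the weakest quartile shows no such rise.

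Of 26 motifs searched on both strands, 12 were found in a larger share of the summit windows than of the flanks. The motifs were chosen with earlier results of these data known, so this count is a description only. TATAAA was in 75 of the 319 windows (23.5%, 19.2 to 28.5) and in 12.9% of flanks, and it was in 21.6% of all autosomal windows and 8.39% of far-intronic windows below the threshold. It was in 22.8% of the far-intronic peaks that overlapped replicate 1's own set and 22.6% of those that overlapped replicate 2's. Counted at the summits of the own sets, the difference between summits and flanks was 6.60 points in replicate 1 and 6.36 in replicate 2, against 10.7 in the pooled set, and it was 3.92 points in pooled windows of 25 bp to each side. By quartile of signal its share was 16.25%, 28.75%, 30.4% and 18.75%, so it did not follow the rise in A and T. The 8-mer TATATTAA was in 15 windows (4.70%, 2.87 to 7.61) and 1.10% of flanks, with 3.71% over all autosomal windows. In windows of 25 bp to each side the difference fell from 3.61 points to 1.10. The Gug window shown above holds both.

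TATTTATA, the core of sites for the muscle factor Mef2, was in 14 windows (4.39%) and 1.72% of flanks, against 3.85% of all autosomal windows. Its reverse complement contains TATAAA, so the counts overlap, as at CG32982. TAAACA, a forkhead core, was in 15.7% of windows and 10.8% of flanks, and in 14.0% of all autosomal windows. The far-intronic peaks that replicate 1 called on its own went the other way for TAAACA, with a difference of -3.77 points between summits and flanks. The homeodomain core TAATTA was as frequent at summits as in flanks, at 8.15% and 7.99%, with 10.3% over all autosomal windows.

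Some motifs were less frequent at summits than in flanks. GCCAT, the core of Pho sites, was in 15.7% of windows and 20.8% of flanks, and its share by quartile of signal ran 23.75%, 16.25%, 16.5% and 6.25%. In all autosomal windows it was in 14.4%. The difference from the flanks was -5.17 points in the pooled set, -10.1 in the own set of replicate 1 and -10.4 in that of replicate 2. GAGAG, the core of sites for the GAGA factor, was in 8.46% and 12.7%, with 8.23% over all autosomal windows. The difference of -4.23 points became -8.18 in the own set of replicate 1 and -7.23 in that of replicate 2. In windows reaching 100 bp to each side it was 0.157 points in the other direction. CACACA was in 5.64% and 9.56%, with 5.89% over all autosomal windows. Its difference was -3.92 points in the pooled set, -5.66 in the own set of replicate 1 and -1.73 in that of replicate 2.

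Motifs of insulator proteins were words of different length, so their shares are not compared with one another. CGATA, a core of BEAF sites, was in 32 windows (10.03%, 7.20 to 13.8), in 10.5% of flanks and in 12.7% of all autosomal windows. AGATGGCG, the core of CTCF sites, was in 3 windows (0.940%, 0.320 to 2.73), including that of Eip75B, against 0.470% of flanks and 1.19% of all autosomal windows. TATCGATA, the DRE motif bound by DREF, was in 0 of 319 windows and in 0.946% of all autosomal windows, about the 0.940% that 3 counts would give and inside the Wilson interval of 0 to 1.19%. It contains CGATA. These counts describe letters in a window, and whether any factor binds there was not measured.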

How the data were processed

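Peak lists of 2 biological replicates, numbered in the labels, were analysed as 1 group. The authors deposited for each replicate, and for the pooled replicates, a long ranked list and the part of it that passed an irreproducible discovery rate, with a signal per peak in no stated unit. The sources used here name no aligner, peak caller or version, and the control library was not analysed here. Coordinates count from 1 on dm6. Genes came from Ensembl release 115 (18277 genes on 7 arms, transposable elements left out) and bases from NCBI's genome.

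Replicate values are those of the strongest ranked peak that overlapped by at least 1 bp. Summit windows reached 50 bp to each side, and flanks were centred 500 bp away. Wilson intervals are at the 95% level, and a floor is 3 counts. Named peaks were the 20 strongest in both own sets, those nearest the distance limit and the extremes. Named hosts had 4 or more peaks or were the leading 3 of a list. Exceptions are stated. Members, gene lists and motifs were chosen with earlier results of these data known. No test was run. Counting scripts were tested on simulated data. Alternatives were each replicate's own set, the conservative and stronger peaks, and other limits, windows and annotations. Python 3.11.15, numpy 2.4.6 and pandas 2.3.3 were used.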

Additional observations from a re-analysis of the deposited data

How the results depend on the processing

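The 2 replicates' own sets, each used without the other, gave 159 to 173 far-intronic peaks, 8.78% to 8.84% of autosomal peaks, a median signal 0.897 to 0.922 times that of other peaks, an A and T difference of 8.45 to 8.53 points, a first-intron share of 50.3% to 55.5%, 27 to 28 genes with 2 or more peaks and 29 to 34 list genes with a peak, where the pooled set gave 59. The autosomal peaks at or above the median signal gave 121 peaks, 8.48% of peaks, 81.8% in both own sets, 10.3 points, 57.0% in first introns, 17 genes with 2 or more and 26 list genes. The conservative set gave 11.1% of peaks, 39.1% in both own sets and 8.44 points. A limit of 2000 bp gave 577 peaks, 20.2% of peaks and 37.6% in both own sets, and one of 10000 bp gave 130 peaks and 4.56%. Protein-coding genes alone gave 12.5% of peaks.

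For the A and T difference, windows of 25 bp to each side gave 7.69 points, windows of 100 bp 4.95, and flanks 1000 bp away 5.96. The alternatives chosen after seeing the data left out the weaker of each overlapping pair (11.2% of peaks and 7.69 points) or counted transposable elements as genes (287 peaks, 10.1% of peaks and 7.44 points). With transposable elements counted, the strongest far-intronic peak, in CG32486 (826), was within 5000 bp of a start. So were the peak in JIL-1 (402) and the stronger one in CG6959 (278). TAAACA at summits against flanks turned to -3.77 points in the own set of replicate 1 (2.89 in that of replicate 2), and GAGAG to 0.157 points in the wider windows. The cause was not tested. No paired analysis was possible because there was 1 group. The printed intervals leave out the spread between replicates, weak peaks were mostly in neither own set, and the precision of summits is unknown.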
